A study of Mus musculus with 10 samples.

Results

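Transcription of 10 genes of the NRF2 oxidative stress response was followed in mouse embryonic stem cells in which Elongin A or Polycomb repressive complex 2 (PRC2) had been altered. The genes were taken by name: Nfe2l2, Keap1 and Sqstm1 from the control of the pathway, and Gclc, Gclm, Gsr, Txnrd1, Srxn1, Hmox1 and Nqo1 from its targets. All 10 were found among the 24901 genes of the deposited table, and all 10 passed the filter on low values that left 15161 genes for testing. The rule itself uses names and no measured value. However, these genes and the gene lists below were chosen with earlier results of these data known. Their shares beside all genes are therefore descriptions. The readout was Bru-seq, in which bromouridine (2 mM for 10 min) is built into RNA while it is being made and RNA that holds it is pulled down with an antibody before sequencing. Values are intronic RPKM, that is intron reads per length of intron and per depth of the library, so they follow the making of RNA rather than its store.

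The 10 samples form 5 groups of 2. EloA_K754M and EloA_K754R cells were edited so that lysine K754 of Elongin A (part of the Elongin complex, which helps RNA polymerase II to elongate) is methionine or arginine, and EloA_WT cells carry wild-type Elongin A. Eed_null cells lack Eed, a core PRC2 subunit, and CJ7_WT cells are wild-type stem cells of the CJ7 line. Every group was kept with LIF, the MEK inhibitor PD0325901 (1 µM), the GSK3 inhibitor CHIR99021 (3 µM) and 2-mercaptoethanol, a reducing agent. The title of the series states that PRC2 methylates Elongin A, and the groups alter one or the other. How many clones stand behind an edited group was not stated. The 6 Elongin A libraries each have a column, whereas Eed_null and CJ7_WT are present as 1 pooled column each, without replicate spread.

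The labels disagree in places. The cell line field reads CJ7 for both edited groups and CCE28 for EloA_WT, although the growth protocol names CJ7 throughout, so in every comparison with EloA_WT the substitution and the parental line cannot be told apart. For Eed_null the line field reads CCE28 and the genotype field names Elongin A, while the sample titles and column names read Eed null and CJ7; the titles were followed here. Reads in introns cannot show an exchanged codon, and a disrupted gene may still be transcribed. Tceb3, the Elongin A gene, had 1.89 RPKM in Eed_null against 1.51 in CJ7_WT, and Eed had 7.97 in Eed_null against 10 in CJ7_WT. The growth protocol describes culture on mouse fibroblast feeders that were removed before use, and the extraction protocol describes dishes without feeders. No label says that the 2 samples of a group were separate cultures, so p-values measure the spread between these samples, which may be technical.

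NRF2, encoded by Nfe2l2, is a transcription factor held low by KEAP1, which presents it to a CUL3 ubiquitin ligase. Oxidants and electrophiles modify cysteines of KEAP1, NRF2 escapes, pairs with a small MAF protein and binds antioxidant response elements, and the autophagy adaptor p62 (Sqstm1) can also draw KEAP1 away. The targets make glutathione, recycle thioredoxin and glutathione, break down heme and reduce quinones. Much of the control of NRF2 lies in the stability of the protein, which nascent RNA does not show.

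The antioxidant response element is the sequence through which NRF2 reaches these genes, so its matches in the promoters are shown. The core TGACNNNGC was searched on both strands in RefSeq windows from 250 bases before to 50 bases after a gene's start (GRCm38.p6). Windows were found for 7 of the 10 genes, 9 windows in all, and are not analysed here for Hmox1, Gclc and Gsr. The core stood in a window of 4 of these 7 genes, against 12.4% of 32851 windows and 14% of 27025 genes genome-wide. Each match is given below in capitals with 10 bases on either side, read along the gene's strand.
Nfe2l2 (chr2:75704885-75704913, minus strand): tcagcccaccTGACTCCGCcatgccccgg
Srxn1 (chr2:152105542-152105570, plus strand): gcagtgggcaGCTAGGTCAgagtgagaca
Gclm (chr3:122245413-122245441, plus strand): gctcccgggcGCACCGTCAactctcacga
Txnrd1 (chr10:82859104-82859132, plus strand): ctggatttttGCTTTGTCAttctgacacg
In Nfe2l2 the core reads along the gene and begins at position −240 from the start. In Srxn1 (position 28), Gclm (position −134) and Txnrd1 (position −92 of 1 of its 3 windows) it lies on the opposite strand, so the capitals show its reverse complement. The windows of Keap1, Sqstm1 and Nqo1 did not hold these letters. Sequence outside the windows was not searched, so a missing match does not show that a gene lacks the element. The C/EBP-ATF response element TGATGNAA, which also serves stress genes, matched 3.97% of all windows and 0 of the 7 genes. Such matches are descriptions of letters and do not show binding.

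By recovered intronic reads, the 6 libraries held between 27099023 and 39944720, 73965372 in pooled Eed_null and 89123974 in pooled CJ7_WT. Stem cell markers summed to 173 to 198 RPKM over 9 genes in the 6 libraries, 158 in Eed_null and 187 in CJ7_WT, led by Zfp42 at up to 79.3. Sox2 is not analysed here. Fibroblast markers, 14 genes of which 9 could be tested, summed to 5.03 and 3.85 RPKM in EloA_K754M and 5.79 and 3.75 in EloA_K754R, against 3.91 and 2.49 in EloA_WT. The pooled columns gave 7.49 in Eed_null and 6.04 in CJ7_WT, and no marker was at 0 in all columns. All 9 tested fibroblast markers had positive changes in both mutants and limma and voom each called 0 of them, with 0 at an unadjusted p under 0.05 in EloA_K754M and 1 in EloA_K754R. With the replicate number as a block limma called 2 of them higher in EloA_K754R, Col1a2 and Prrx1, where 1777 of the 15161 tested genes were called. In the mean of both mutants that fit called 1 marker higher, Col1a2, where 1046 of all tested genes were called. The part of the fibroblast markers in the results was not tested.

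The 10 genes were transcribed in every column. In EloA_WT the highest were Sqstm1 at 7.23 ± 1.2 and Nfe2l2 at 6.84 ± 0.571 RPKM (SD, n = 2), whose ranges overlap, and the lowest was Srxn1 at 1.28 ± 0.0431. Nqo1 at 2.43 ± 0.243 RPKM came next above Srxn1. By mean level over the 6 libraries, Nfe2l2 stood at the 92.9 percentile of tested genes and Srxn1 at the 48.2 percentile. Nfe2l2 was the highest of the 10 in 7 of the 8 columns and Srxn1 the lowest in 7 of 8. The exceptions were EloA_WT replicate 2, where Sqstm1 was higher, and Eed_null, where Nqo1 was lower. The precision of a value depends on its reads. Srxn1 rested on 37 to 77 reads per library (the 37 allow 26.1 to 51 by an exact Poisson 95% interval), Hmox1 on 111 to 363, and Txnrd1 on 5753 to 10872. Such intervals cover counting error only, since reads without molecular identifiers are not independent molecules.

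**Figure D1:**
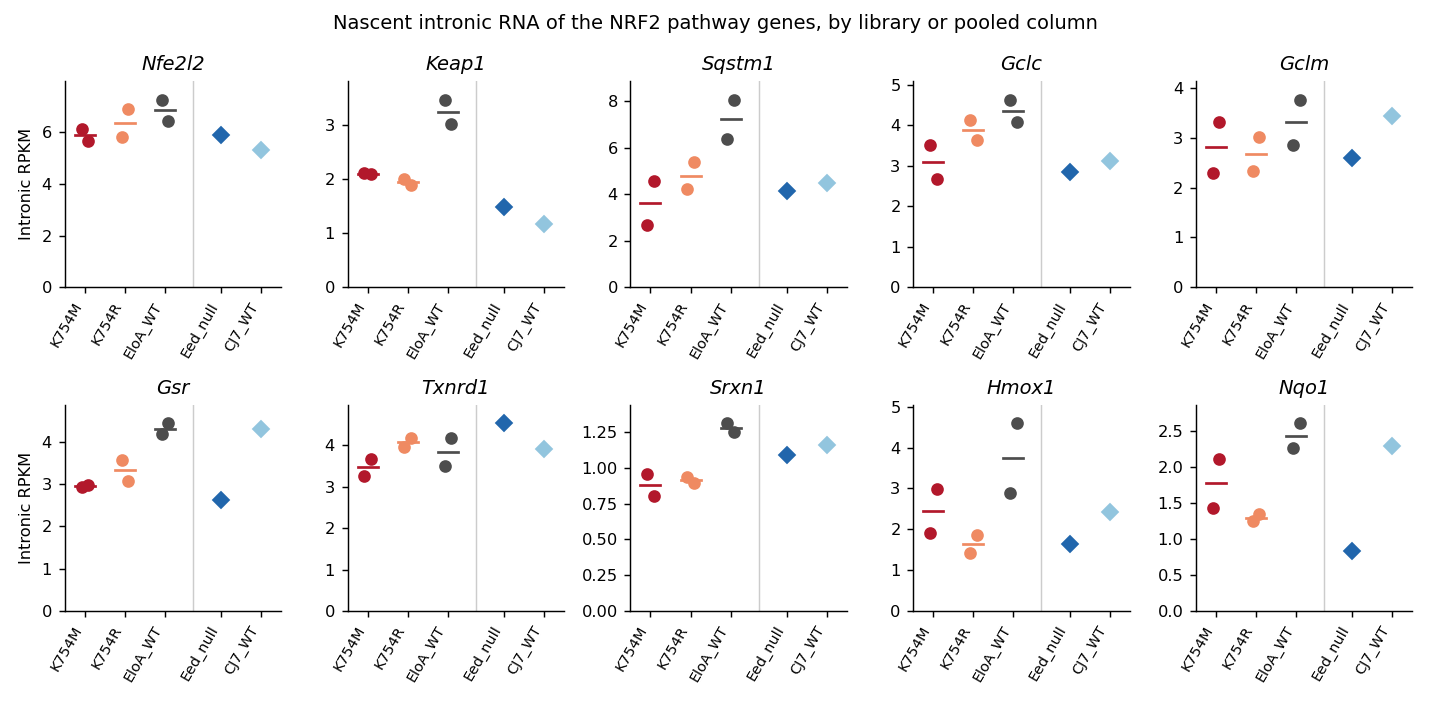
Intronic RPKM (vertical axes, from 0) of the 10 NRF2 pathway genes; circles are single libraries with the group mean as a bar, diamonds are pooled columns without replicates. Keap1, Gsr, Srxn1, Nqo1 and Sqstm1 were lower in all 4 mutant libraries than in both EloA_WT libraries, and Nqo1 was 0.828 in Eed_null against 2.29 in CJ7_WT.

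In EloA_K754M cells each of the 10 genes had a negative log2 change against EloA_WT, with a median of −0.49 against −0.06 for all tested genes. None passed the adjusted threshold of 0.05 (limma, Benjamini-Hochberg over 15161 genes), where 0.218% of all genes did; limma on recovered reads with voom weights, and limma with the replicate number as a block, also called 0. At an unadjusted p under 0.05 there were 5 (Gclc, Gsr, Srxn1, Sqstm1 and Keap1), all lower, against 10.7% of all genes in that direction. Both EloA_K754M values lay below both EloA_WT values for 7 genes, against 27.2% of all tested genes. The 10 changes were negative, against 57.3% of all genes. All 10 were also negative with equal library medians, with quantile normalization and with chromosome medians removed. The median change of all genes was then 0.07, 0.02 and 0.05 in that order. In these bulk samples fewer cells of a type and less RNA per cell cannot be told apart.

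In EloA_K754R cells Keap1 fell, and it was the only one of the 10 past the threshold, where 3.48% of all genes were called and 2.79% were called lower. Of the 10 genes 9 had a negative change, against 64.3% of all genes, with a median of −0.41 against −0.14. With equal library medians, quantile normalization or chromosome medians removed, 7 were negative. The median change of all genes was then 0.05, 0.02 and 0.05 in that order. At an unadjusted p under 0.05 there were 5 (Hmox1, Nqo1, Gsr, Srxn1 and Keap1), all lower, against 18.9% of all genes. For 6 genes both EloA_K754R values lay below both EloA_WT values, against 38.8% of all genes. With the replicate number as a block limma called 3, Keap1, Hmox1 and Nqo1, where it called 1777 of the 15161 tested genes. Hmox1 had the largest log2 change, −1.12, and Txnrd1 the only positive one, 0.09. Both mutants are compared with the same EloA_WT libraries, so their results are not independent of each other.

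**Figure D2:**
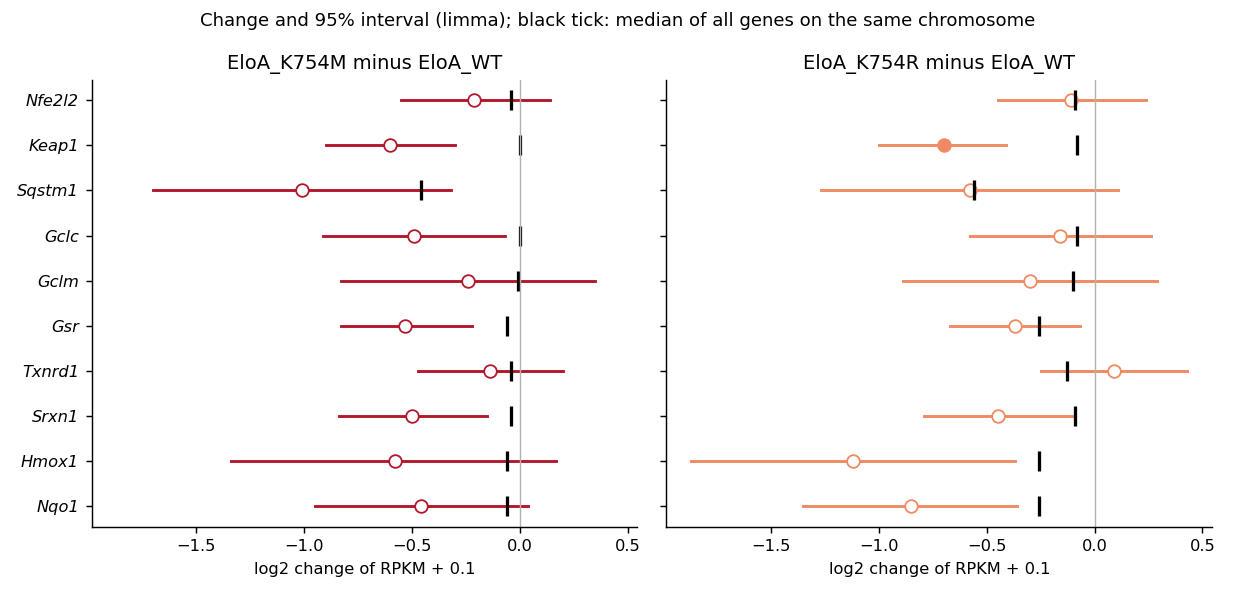
Log2 change of RPKM plus 0.1 against EloA_WT (horizontal axis) in EloA_K754M (left) and EloA_K754R (right), with 95% intervals from limma; filled points passed the adjusted threshold and black ticks mark the median of all genes on the same chromosome. Only Keap1 in EloA_K754R is filled, and Sqstm1 stands beside a chromosome 11 median of −0.46 and −0.56.

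Among the regulators, Nfe2l2 (ENSMUSG00000015839, chromosome 2), which encodes NRF2 itself, stood at 6.13 and 5.67 RPKM in EloA_K754M, 5.82 and 6.91 in EloA_K754R and 7.25 and 6.44 in EloA_WT. The EloA_K754M values lay below both EloA_WT values, and EloA_K754R overlapped EloA_WT. Its log2 change was −0.21 in EloA_K754M (95% interval −0.55 to 0.14, adjusted p = 0.541) and −0.11 in EloA_K754R (−0.45 to 0.24, adjusted p = 0.682). Without 1 library these ran from −0.29 (without EloA_WT replicate 2) to −0.12 (without EloA_WT replicate 1) in EloA_K754M and from −0.23 (without EloA_K754R replicate 2) to 0.02 (without EloA_K754R replicate 1) in EloA_K754R. With equal library medians the sign in EloA_K754R turned, to 0.09, and so it did with quantile normalization (0.05) and with chromosome medians removed (0.04).

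Keap1 (ENSMUSG00000003308, chromosome 9), the adaptor that holds NRF2 low, had 2.11 and 2.1 RPKM in EloA_K754M, 2.01 and 1.9 in EloA_K754R and 3.47 and 3.02 in EloA_WT. All 4 mutant values lay below both EloA_WT values. Keap1 fell in EloA_K754R, to 1.95 ± 0.0784 RPKM against 3.25 ± 0.317 in EloA_WT (SD, n = 2 each; log2 change −0.70, SE 0.121, limma adjusted p = 0.0453). In EloA_K754M the log2 change was −0.60 (SE 0.121, adjusted p = 0.12). The call in EloA_K754R held in 5 of 17 alternatives, with adjusted p between 0.0278 and 0.211 over all of them, and the change was negative in each. It ended without any 1 of the 6 libraries, at 0.203 and 0.144 without EloA_WT replicate 1 or 2, 0.0949 and 0.0946 without EloA_K754M replicate 1 or 2, and 0.211 and 0.18 without EloA_K754R replicate 1 or 2. The unnamed gene model Gm16754 overlaps 34.4% of Keap1 on the opposite strand in GENCODE (GRCm38), and strand handling is not given, so reads of the overlap cannot be assigned.

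Sqstm1 (ENSMUSG00000015837, chromosome 11) encodes p62, a cargo receptor of autophagy that is both a partner of KEAP1 and a target of NRF2. It stood at 2.7 and 4.59 RPKM in EloA_K754M, 4.23 and 5.38 in EloA_K754R and 6.38 and 8.07 in EloA_WT. Every mutant value lay below both EloA_WT values, with a wide gap between the EloA_K754M libraries. On the log2 scale the change was −1.01 in EloA_K754M (95% interval −1.70 to −0.32, adjusted p = 0.189), the largest of the 10 there, and −0.58 in EloA_K754R (−1.27 to 0.11, adjusted p = 0.263). Without EloA_K754M replicate 1 the change in EloA_K754M was −0.63. Genes on chromosome 11 were lower as a whole, with medians of −0.46 in EloA_K754M and −0.56 in EloA_K754R over 1314 genes. Relative to that median Sqstm1 lay at −0.55 in EloA_K754M and −0.02 in EloA_K754R. With the chromosome medians removed from each library its change in EloA_K754R was 0.04. The part of the chromosome-wide difference in the Sqstm1 values was not tested further. Mrnip, listed as 3010026O09Rik, overlaps 6.54% of Sqstm1 on the opposite strand and had 0.531 and 0.504 RPKM in EloA_K754M, 0.53 and 0.541 in EloA_K754R and 1.28 and 0.836 in EloA_WT.

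Of the glutathione genes, Gclc (ENSMUSG00000032350, chromosome 9) encodes the catalytic subunit of glutamate-cysteine ligase, the rate-limiting enzyme of glutathione synthesis. Its values were 3.51 and 2.67 RPKM in EloA_K754M, 4.14 and 3.63 in EloA_K754R and 4.63 and 4.09 in EloA_WT. EloA_K754M lay below both EloA_WT values and EloA_K754R overlapped them. By limma the log2 change was −0.49 in EloA_K754M (SE 0.17, adjusted p = 0.263) and −0.16 in EloA_K754R (SE 0.17, adjusted p = 0.599), and the EloA_K754R sign turned with equal library medians (0.03) and quantile normalization (0.01). The EloA_K754M value was −0.30 without EloA_K754M replicate 2, and the EloA_K754R value was −0.07 without EloA_WT replicate 1 or EloA_K754R replicate 2 and reached −0.26 without EloA_K754R replicate 1.

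Gclm (ENSMUSG00000028124, chromosome 3), the modifier subunit of the same ligase, had 2.3 and 3.31 RPKM in EloA_K754M, 2.33 and 3.01 in EloA_K754R and 2.86 and 3.76 in EloA_WT. All 3 groups overlapped. The change on the log2 scale was −0.24 in EloA_K754M (95% interval −0.83 to 0.35, adjusted p = 0.69), which became 0.01 without EloA_K754M replicate 1 and −0.49 without EloA_K754M replicate 2. In EloA_K754R it was −0.30 (−0.89 to 0.29, adjusted p = 0.486), and −0.11 without EloA_WT replicate 2 and −0.49 without EloA_WT replicate 1. Gclm values are uncertain for a further reason, because the gene model Gm17494 covers 58.7% of Gclm on the opposite strand. Gm17494 has its own values of 2.74 and 3.92 RPKM in EloA_K754M, 2.33 and 2.84 in EloA_K754R and 3.16 and 3.83 in EloA_WT, close to those of Gclm.

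Gsr (ENSMUSG00000031584, chromosome 8), glutathione reductase, which returns oxidised glutathione to its reduced form, had 2.93 and 2.98 RPKM in EloA_K754M, 3.57 and 3.07 in EloA_K754R and 4.17 and 4.43 in EloA_WT. The replicates were close and all 4 mutant values lay below both EloA_WT values. The log2 change was −0.53 in EloA_K754M (SE 0.122, unadjusted p = 0.00555, adjusted p = 0.143 by limma) and −0.37 in EloA_K754R (SE 0.122, adjusted p = 0.14). Chromosome 8 as a whole had a median of −0.06 in EloA_K754M and −0.26 in EloA_K754R, and Gsr lay at −0.46 and −0.11 relative to it.

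The thioredoxin genes are given in turn, without a test between them. Txnrd1 (ENSMUSG00000020250, chromosome 10), the cytosolic thioredoxin reductase, had 3.27 and 3.68 RPKM in EloA_K754M, 3.96 and 4.19 in EloA_K754R and 3.5 and 4.17 in EloA_WT. Both mutants overlapped EloA_WT. Its log2 change was −0.14 in EloA_K754M (95% interval −0.47 to 0.20, adjusted p = 0.695) and 0.09 in EloA_K754R (−0.25 to 0.43, adjusted p = 0.73), and the sign in EloA_K754R turned to −0.03 without EloA_WT replicate 1. The EloA_K754M value ran from −0.26 without EloA_WT replicate 1 to −0.01 without EloA_WT replicate 2. Gm38560 overlaps 20.8% of Txnrd1 on the opposite strand.

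Srxn1 (ENSMUSG00000032802, chromosome 2), sulfiredoxin, which repairs overoxidised peroxiredoxins, had 0.959 and 0.805 RPKM in EloA_K754M, 0.933 and 0.893 in EloA_K754R and 1.31 and 1.25 in EloA_WT. Each mutant value lay below both EloA_WT values. These rest on 43 and 37 reads in EloA_K754M, 46 and 59 in EloA_K754R and 77 and 62 in EloA_WT. On the log2 scale the change was −0.50 in EloA_K754M (SE 0.14, adjusted p = 0.193) and −0.45 in EloA_K754R (SE 0.14, adjusted p = 0.126), and neither passed.

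Hmox1 (ENSMUSG00000005413, chromosome 8) encodes heme oxygenase 1, which breaks heme down to biliverdin, iron and carbon monoxide. Its values were 1.92 and 2.99 RPKM in EloA_K754M, 1.41 and 1.86 in EloA_K754R and 2.89 and 4.59 in EloA_WT. EloA_K754R lay below both EloA_WT values, and EloA_K754M overlapped the lower one. By limma the log2 change was −1.12 in EloA_K754R (95% interval −1.87 to −0.37, adjusted p = 0.0973), a mean of 1.64 ± 0.317 RPKM against 3.74 ± 1.21 in EloA_WT (SD, n = 2 each). With the replicate number as a block it passed in EloA_K754R (adjusted p = 0.0237). In EloA_K754M the change was −0.58 (−1.34 to 0.17, adjusted p = 0.438), and single libraries moved it, from −0.26 without EloA_WT replicate 2 and −0.28 without EloA_K754M replicate 1 to −0.89 without EloA_K754M replicate 2 and −0.91 without EloA_WT replicate 1. Relative to the chromosome 8 median Hmox1 lay at −0.86 in EloA_K754R and −0.52 in EloA_K754M.

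Nqo1 (ENSMUSG00000003849, chromosome 8), the quinone reductase often read as a marker of NRF2 activity, had 1.43 and 2.11 RPKM in EloA_K754M, 1.25 and 1.34 in EloA_K754R and 2.26 and 2.6 in EloA_WT. All mutant values lay below both EloA_WT values. The change on the log2 scale was −0.85 in EloA_K754R (SE 0.199, unadjusted p = 0.0057, limma adjusted p = 0.0745) and −0.46 in EloA_K754M (SE 0.199, adjusted p = 0.356). With voom on the recovered reads Nqo1 passed in EloA_K754R (adjusted p = 0.0323; 0.0323 to 0.325 over its 17 alternatives), as it did with the replicate number as a block (0.0342). In EloA_K754M the change was −0.19 without EloA_K754M replicate 1 and −0.72 without EloA_K754M replicate 2. Relative to the chromosome 8 median it lay at −0.59 in EloA_K754R and −0.39 in EloA_K754M.

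With both mutants pooled, the mean of EloA_K754M and EloA_K754R against EloA_WT called 0 of the 10 genes by limma, against 1.58% of all genes, with 6 lower at an unadjusted p under 0.05 (15.9% of all genes) and 2 (Keap1 and Gsr) called with voom. With the replicate number as a block 4 were called, Keap1 (adjusted p = 0.0331), Hmox1 (0.0322), Sqstm1 (0.04) and Nqo1 (0.0487). Of the 15161 tested genes voom called 903 in this comparison and the block 1046. The 10 changes were negative, against 62.1% of all genes. With equal library medians 8 were negative, and 9 were with quantile normalization or with chromosome medians removed. The median change of all genes was then 0.06, 0.02 and 0.05 in that order. For 5 genes (Keap1, Gsr, Srxn1, Nqo1 and Sqstm1) all 4 mutant values lay below both EloA_WT values, against 18.8% of all genes. Keap1 came nearest to the threshold, at −0.65 (adjusted p = 0.0538; 0.0331 to 0.293 over its 16 alternatives). The other changes ran from −0.85 for Hmox1 and −0.79 for Sqstm1 to −0.02 for Txnrd1. The Hmox1 value was −0.53 without EloA_WT replicate 2.

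The direct comparison of EloA_K754M with EloA_K754R separated none of the 10 genes, with 0 called by limma or by voom and 0 at an unadjusted p under 0.05. Of all genes 0.29% were called, and 6.87% were lower and 11.6% higher at that unadjusted p. Hmox1, Nqo1 and Keap1 were higher in both EloA_K754M libraries than in both EloA_K754R libraries (31.9% of all genes), and Gclc, Gsr and Txnrd1 were lower (18.6%). The largest differences were 0.54 for Hmox1 (95% interval −0.22 to 1.29, adjusted p = 0.408), −0.43 for Sqstm1 (−1.12 to 0.27, adjusted p = 0.464) and 0.40 for Nqo1 (−0.10 to 0.89, adjusted p = 0.352). They moved with each of the EloA_K754M libraries, to 0.84 for Hmox1, −0.06 for Sqstm1 and 0.66 for Nqo1 without replicate 1 and to 0.23 for Hmox1, −0.80 for Sqstm1 and 0.14 for Nqo1 without replicate 2, and Sqstm1 was −0.26 without EloA_K754R replicate 2 and Hmox1 0.35 without EloA_K754R replicate 1. These intervals include 0 and also differences of up to 1 log2 unit or more for Hmox1 and Sqstm1, so the values do not show that the substitutions act alike.

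Around these 10 genes, a wider list of 48 NRF2-linked genes was read in the same fit, of which 40 could be tested. This list, like the 10 genes, was chosen with earlier results of these data known. In EloA_K754R 4 fell and 0 rose, where 2.79% of all genes were called lower. Voom called 8 in EloA_K754R, where it called 1337 of the 15161 tested genes. The replicate number as a block gave 7, where 1777 of all tested genes were called. There 32 changes were negative, against 64.3% of all genes, and the median was −0.32 against −0.14 for all genes. In EloA_K754M 0 were called (2 by voom and 2 with the block, where these called 346 and 227 of all tested genes). At an unadjusted p under 0.05 in EloA_K754M there were 12, all lower, against 10.7% of all genes in that direction. There 34 changes were negative, against 57.3% of all genes, and the median was −0.25 against −0.06. With equal library medians 24 of the 40 were negative in EloA_K754R and 29 in EloA_K754M. The median change of all genes was then 0.05 in EloA_K754R and 0.07 in EloA_K754M. The genes that fell in EloA_K754R also passed in the mean of both mutants. Between EloA_K754M and EloA_K754R limma called 0 of the 40. There voom called Sesn2 higher and Abcc4 lower in EloA_K754M, and the block called Sesn2 and Gstp1 higher and Gstm1 lower. Calls over all genes in these fits are given at the end.

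Slc7a11, the cystine carrier that feeds glutathione synthesis, had 0.0242 and 0.123 RPKM in EloA_K754M, 0.0192 and 0.0761 in EloA_K754R and 0.699 and 0.918 in EloA_WT. Its log2 change was −2.64 in EloA_K754R (adjusted p = 0.0364) and −2.44 in EloA_K754M (adjusted p = 0.0868), the largest in the list. Sesn2, a stress-induced sestrin, had 5.13 and 4.28 RPKM in EloA_K754M, 2.84 and 2.49 in EloA_K754R and 6.87 and 6.55 in EloA_WT. It fell by 1.31 on the log2 scale in EloA_K754R (adjusted p = 0.0244) and stood at −0.51 in EloA_K754M (adjusted p = 0.186). Slc7a11 and Sesn2 also answer to ATF4 and other stress factors. Pgd, an NADPH-producing enzyme of the pentose phosphate pathway, fell there by 0.97 (adjusted p = 0.0347) and Gstm2, a glutathione transferase of a family of close paralogs, by 1.30 (adjusted p = 0.0421). Gstm2 rested on 9 and 14 reads in EloA_K754M, 11 and 14 in EloA_K754R and 41 and 33 in EloA_WT. Pooled CJ7_WT had 0.23 RPKM of Slc7a11, 6.67 of Sesn2, 2.21 of Pgd and 0.115 of Gstm2. None of these 4 calls held when any 1 of the 6 libraries was left out, with adjusted p in EloA_K754R of 0.0661 to 0.164 for Sesn2, 0.079 to 0.198 for Slc7a11, 0.0894 to 0.179 for Pgd and 0.082 to 0.216 for Gstm2.

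The other genes of this list named for the size of their change, Cbr3, Gsta3 and Fth1, did not pass by limma. Cbr3 and Gsta3 did in other fits. Cbr3, a carbonyl reductase, stood at −1.37 in EloA_K754M (adjusted p = 0.131) and −1.04 in EloA_K754R (adjusted p = 0.109; 0.0423 to 0.343 over 17 alternatives, with 1 call, under the replicate block). Gsta3, a glutathione transferase, stood at −0.93 in EloA_K754M (adjusted p = 0.191) and −0.97 in EloA_K754R (adjusted p = 0.0945; 0.041 to 0.307 over 17 alternatives, with 1 call, by voom). In the mean of both mutants voom called Cbr3 and Gsta3, and the replicate block called Cbr3. List genes outside the naming rule were also called in other fits. Gstm3, averaging under 0.5 RPKM, stood at −1.49 in EloA_K754M and −1.20 in EloA_K754R, and voom called it in both. Gstm1, also under 0.5 RPKM, stood at −1.44 in EloA_K754M and −0.22 in EloA_K754R, and the block called it in EloA_K754M. In EloA_K754R voom called Blvrb and Gpx4, and the block called Gpx4 and Gstp1. Fth1, the ferritin heavy chain, had 2.89 and 7.59 RPKM in EloA_K754M, 2.42 and 2.92 in EloA_K754R and 5.5 and 6.15 in EloA_WT, a log2 change of −1.10 in EloA_K754R (adjusted p = 0.184) and −0.30 in EloA_K754M (adjusted p = 0.787).

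By role the list was uneven, and the medians are read beside −0.06 in EloA_K754M and −0.14 in EloA_K754R for all genes. The 10 tested genes of glutathione use had medians of −0.79 in EloA_K754M and −0.96 in EloA_K754R. Of these, Gpx2 and the paralogs Gstm1, Gstm2 and Gstm3 averaged under 0.5 RPKM. The others ran from 0.22 for Gpx1 to −0.93 for Gsta3 in EloA_K754M. In EloA_K754R they ran from −0.33 for Gsta4 to −0.97 for Gsta3 and Gstp1. The 3 genes of glutathione synthesis and cystine uptake had −0.42 in EloA_K754M and −0.66 in EloA_K754R. The 6 heme and iron genes had −0.19 in EloA_K754M and −0.54 in EloA_K754R, and the 6 NADPH genes had −0.41 in EloA_K754M, with 6 negative, and −0.14 in EloA_K754R, with 3 negative. Nearer to all genes lay the 5 thioredoxin and peroxiredoxin genes, at −0.18 in EloA_K754M and −0.11 in EloA_K754R, and the 7 detoxification genes, at −0.11 in EloA_K754M and −0.10 in EloA_K754R. The 3 export genes had −0.03 in EloA_K754M and 0.29 in EloA_K754R, where 2 of them were positive.

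Of 14 partners and regulators of NRF2, 1 fell in EloA_K754R, where 2.79% of all genes were called lower. Voom called 3 in EloA_K754R and the replicate number as a block gave 4, all lower. Of the 15161 tested genes these 2 fits called 1337 and 1777. In EloA_K754M 0 were called, against 0.218% of all genes, while voom called 2 (Nfe2l1 lower and Bach2 higher) and the block 1 (Nfe2l1). Of all tested genes voom called 346 in EloA_K754M and the block 227. At an unadjusted p under 0.05 there 5 were lower, against 10.7% of all genes, and 1 was higher, against 4.65% of all genes. The directions were mixed, with 9 negative and 5 positive changes in EloA_K754M and 8 negative and 6 positive in EloA_K754R. Between the mutants limma called 0 of the 14. There voom called Bach2 and Nfe2l3 higher in EloA_K754M, and the block called Nfe2l3 higher. Nfe2l1, a relative of NRF2 known for its control of proteasome genes, had 3.13 and 3.43 RPKM in EloA_K754M, 2.83 and 3.36 in EloA_K754R and 5.97 and 7.39 in EloA_WT. It fell by 1.08 on the log2 scale in EloA_K754R (adjusted p = 0.0373; 0.0903 to 0.198 without 1 library) and did not pass in EloA_K754M (SE 0.157, adjusted p = 0.0882). Mafg, one of the small MAF partners, had log2 changes of −0.77 in EloA_K754M (adjusted p = 0.0953) and −0.72 in EloA_K754R (adjusted p = 0.0544; 0.0308 to 0.744 over 17 alternatives, with 3 calls). Pooled CJ7_WT had 3.65 RPKM of Nfe2l1. For Mafg it had 4.63 RPKM, against 5.23 to 6.03 in the mutant libraries and 10.1 and 8.6 in EloA_WT. Nfe2l1 and Mafg lie on chromosome 11, as Sqstm1 does. Relative to that chromosome's median Nfe2l1 lay at −0.54 in EloA_K754M and −0.52 in EloA_K754R, and Mafg at −0.31 in EloA_K754M and −0.16 in EloA_K754R.

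**Figure D3:**
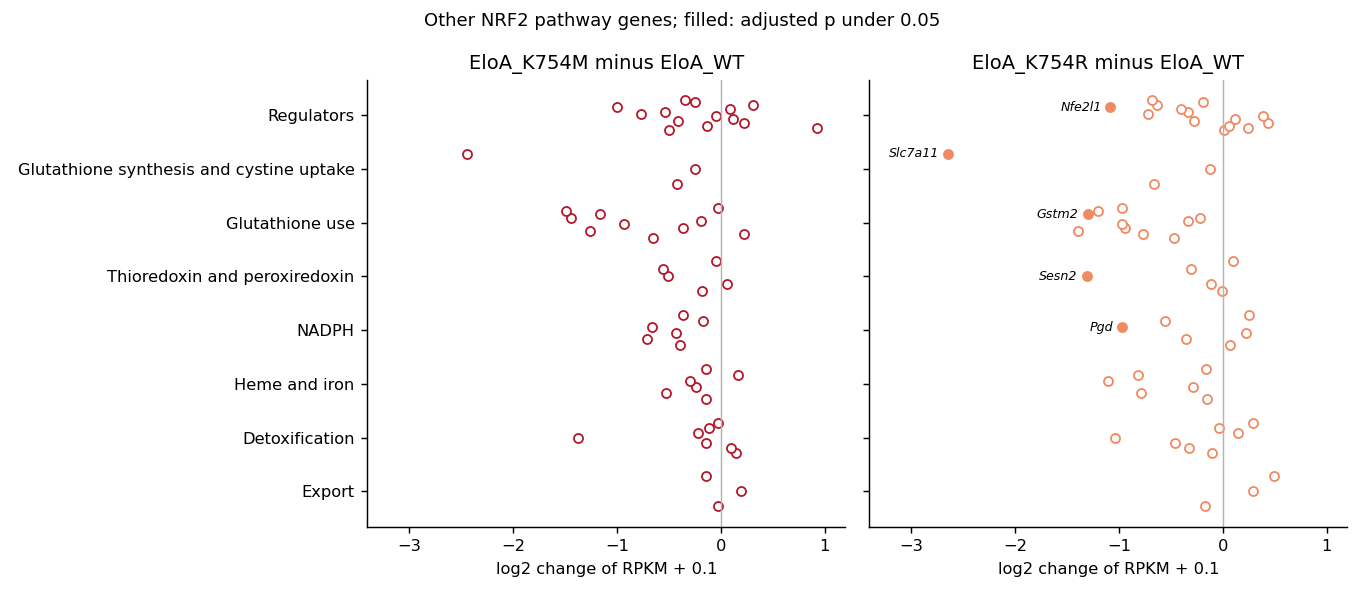
Log2 change of RPKM plus 0.1 against EloA_WT (horizontal axis) for the 40 tested genes of the wider NRF2 list by role and the 14 regulators, in EloA_K754M (left) and EloA_K754R (right); filled and named points passed the adjusted threshold. The 5 filled points, all in EloA_K754R, lie between −0.97 for Pgd and −2.64 for Slc7a11.

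Between the pooled columns Nqo1 showed the widest gap, with 0.828 RPKM in Eed_null against 2.29 in CJ7_WT, a ratio of 0.361. The 95% interval for counting error was 0.335 to 0.389, on 892 reads in Eed_null and 2957 in CJ7_WT. There is no replicate spread here and no test, and the values compare these columns only. Nqo1 was the only one of the 10 genes past 2-fold lower, as were 1.67% of 14890 genes, and its log2 ratio of −1.37 lay at the 0.725 percentile of all genes. Gsr had 2.63 RPKM in Eed_null against 4.31 in CJ7_WT, a ratio of 0.61 (0.595 to 0.626). Hmox1 had 1.64 in Eed_null against 2.43 in CJ7_WT, a ratio of 0.674 (0.586 to 0.775). Past 1.5-fold lower there were 2 genes, Nqo1 and Gsr, against 5.37% of all genes.

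The 3 genes with the lowest ratios, Nqo1, Gsr and Hmox1, all lie on chromosome 8. The median log2 ratio of that chromosome was −0.20 over 749 genes, against 0.11 for all genes. Relative to it Nqo1 lay at −1.16, Gsr at −0.49 and Hmox1 at −0.34. What the chromosome contributes was not tested further.

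The other 7 genes lay closer together. Gclm had 2.6 RPKM in Eed_null against 3.43 in CJ7_WT, a ratio of 0.76 (0.718 to 0.805), while Gm17494, on its opposite strand, had 1.73 in Eed_null and 2.02 in CJ7_WT. Gclc (0.911), Sqstm1 (0.924) and Srxn1 (0.942) were near 1, and the interval of Srxn1, 0.745 to 1.19, included it. Nfe2l2 (1.11), Txnrd1 (1.16) and Keap1 (1.27) were above 1. Keap1 had 1.48 RPKM in Eed_null against 1.17 in CJ7_WT (interval 1.13 to 1.42). In all, 7 of the 10 log2 ratios were negative, against 38.2% of all genes, with a median of −0.12 against 0.11. With equal column medians the sign of Nfe2l2 turned, at −0.01. In the wider list 19 of 39 genes had a negative ratio and the median was 0.01. Of the 14 NRF2 partners and regulators 4 had a negative ratio, and their median was 0.16 against 0.11 for all genes. One of the 14 is Bach1, a repressor that competes with NRF2 and was chosen after its values were seen. It had 7.38 RPKM in Eed_null against 3.35 in CJ7_WT, and its part in these ratios was not tested. Primitive endoderm markers summed to 1.66 RPKM over 6 genes in Eed_null against 0.517 in CJ7_WT. Trophectoderm markers summed to 2.83 RPKM over 5 genes in Eed_null against 1.36 in CJ7_WT. The part of either list in these ratios was not tested.

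**Figure D4:**
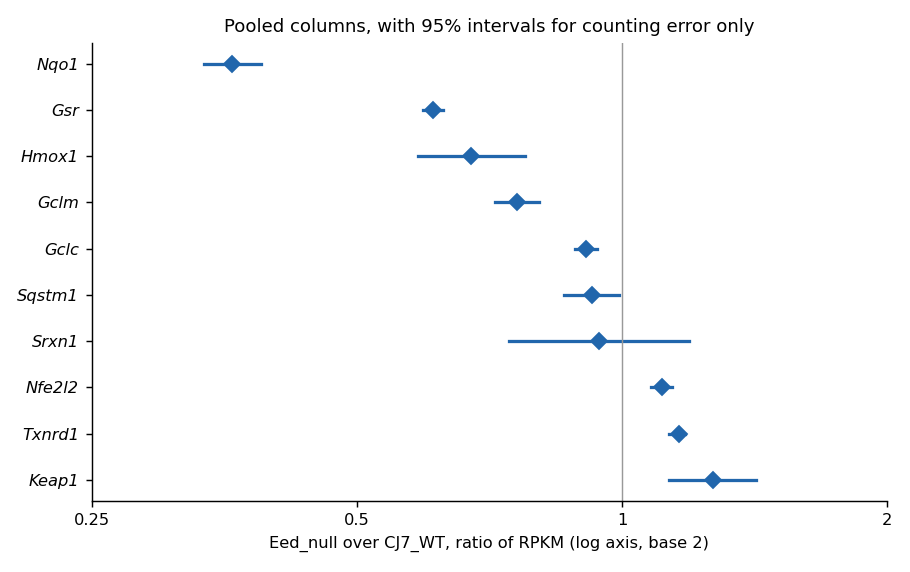
Ratio of intronic RPKM in pooled Eed_null over pooled CJ7_WT (horizontal log axis, base 2) for the 10 genes, with exact 95% intervals for counting error of the reads. Nqo1 stands at 0.361, Gsr at 0.61 and Hmox1 at 0.674, and Keap1 has the highest ratio, 1.27.

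The levels of the wild-type groups differed as well. Pooled CJ7_WT lay below both EloA_WT libraries for 6 of the 10 genes (53.1% of all tested genes did) and between them for the other 4, Nqo1, Gclm, Gsr and Txnrd1. The largest gap was for Keap1, with 1.17 RPKM in CJ7_WT against 3.47 and 3.02 in EloA_WT, a log2 difference of −1.40. Sqstm1 followed, with 4.48 RPKM in CJ7_WT and a log2 difference of −0.67. For Keap1 the mutant values, 1.9 to 2.11 RPKM, thus lay between CJ7_WT and EloA_WT. Eed_null lay below both EloA_WT libraries for 9 genes (48.7% of all genes), and above both for Txnrd1 (34.5%). Whether the parental line or the substitution sets the Keap1 difference from EloA_WT cannot be told apart.

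Over the 8 columns the log2 values of Hmox1, which had the largest mean change, were most like those of Sod2, mitochondrial superoxide dismutase, with Pearson r = 0.981 among 7962 genes. Rbbp8 (0.969) and Zc3hc1 (0.961) came next. These columns share depth scaling and 6 of them enter the comparisons above, and the highest of 7962 coefficients is high by selection. The range of Sod2 was narrow, at 5.81 and 6.32 RPKM in EloA_K754M, 5.65 and 5.98 in EloA_K754R, 6.47 and 6.9 in EloA_WT, 5.75 in Eed_null and 6.1 in CJ7_WT. Among the pathway genes r with Hmox1 was 0.857 for Nqo1 (99.1 percentile of the compared genes), 0.822 for Gclm (98.2) and 0.692 for Sqstm1 (92.2). It was 0.592 for Gsr (85.5), 0.532 for Keap1 (80.3) and 0.443 for Srxn1 (72.3). The lowest were 0.202 for Nfe2l2 (48.5), 0.142 for Gclc (43.7) and −0.115 for Txnrd1 (26.8). In every Elongin A group replicate 2 was above replicate 1 for Hmox1, Nqo1, Gclm, Sqstm1 and Txnrd1. It was below replicate 1 for Gclc, Srxn1 and Keap1. These coefficients therefore mix differences between replicates with differences between groups, and the part of each was not tested.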

How the data were processed

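Intronic RPKM were deposited by the authors as 1 table, in 6 single-library columns and 2 columns named averages. Reads were aligned with BWA to mm9, per the submitters' processing notes, with the counter, gene annotation, strand handling and depth basis not given in the sources used here. RPKM steps gave whole reads (within 0.01 of a read) for 20816 of 20817 genes with 6 or more columns above 0, the pooled columns included, so read numbers here are recovered from the deposited RPKM. Of 24901 genes, 22887 were placed on a chromosome by Ensembl identifier in GENCODE (GRCm38).

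Values were fitted as log2 of RPKM plus 0.1 by limma 3.58.1 under R 4.3.3 (eBayes with trend), with the 3 Elongin A groups in 1 fit and only the 15161 genes averaging 0.1 RPKM or more. This scale understates changes of low genes. Two-sided p-values were adjusted by Benjamini-Hochberg over these genes (threshold 0.05), with 3 residual and 2.76 prior degrees of freedom, and a median residual SD of 0.195. "Fell" and "called" mean past that threshold. Eed_null over CJ7_WT is a ratio without a test, with exact 95% intervals from recovered reads (scipy 1.17.1). The fit and read recovery were tested on simulated data.

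The members, gene lists and marker lists were chosen with earlier results of these data known. Named were all members, list genes called against EloA_WT, and per comparison the 4 listed genes with the largest change among those averaging 0.5 RPKM or more. Where a symbol stood on more than 1 line, the line with the higher mean was used. Alternatives were the offset, filter, scaling, variance trend, a replicate block, voom on recovered reads, chromosome medians, only the groups compared, and each library left out. Same-numbered samples deviated together across genes in all 3 pairs of Elongin A groups (correlations 0.166, 0.197 and 0.152), so values with the replicate number as a block stand beside the results whose calls they change. This pairing comes from the data, since the labels do not say that the numbers mark a shared culture or day.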

Additional observations from a re-analysis of the deposited data

How the results depend on the processing

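Equal library medians moved the median change of all genes by 0.13 in EloA_K754M, 0.19 in EloA_K754R and 0.16 in their mean, each against EloA_WT, and the EloA_K754R calls went to 164 higher and 160 lower with it and 169 higher and 164 lower with quantile normalization, against 104 higher and 423 lower as reported. Srxn1 rests on at most 77 reads per library. Genes called over all tested were 33 for EloA_K754M against EloA_WT, 527 for EloA_K754R against EloA_WT, 239 for their mean and 44 between the mutants. For EloA_K754M they became 16 with no filter, 16 with equal medians, 17 with quantile normalization, 346 with voom, 3 with only the groups compared and 2 to 52 without 1 library. For EloA_K754R they became 160 with no filter, 324 with equal medians, 333 with quantile normalization, 228 without the variance trend, 1337 with voom, 129 with chromosome medians removed, 1 with only the groups compared and 1 to 9 without 1 library. For the mean they became 50, 40, 51, 65, 903 and 53 under the same settings in that order and 3 to 35 without 1 library, and the fit of only the groups compared was not run for it. Between the mutants they became 27 with an offset of 1, 26 with no filter, 12 from a mean of 0.5 RPKM, 68 with equal medians, 90 with quantile normalization, 448 with voom, 26 with only the groups compared and 5 to 62 without 1 library. Fits without 1 library have fewer degrees of freedom, and otherwise the cause was not tested.

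Of the 10 pathway genes, the 1 called in EloA_K754R (Keap1) became 0 with no filter, equal medians, quantile normalization, no variance trend, chromosome medians removed, only the groups compared and without any 1 library, and 2 with voom (Keap1 and Nqo1). For the mean, 0 became 1 from a mean of 0.5 RPKM (Keap1) and 2 with voom. In the wider list the 4 called in EloA_K754R ranged from 0 to 8 over all settings. With a replicate block all genes called numbered 227, 1777, 1046 and 355 in the 4 comparisons in the order above, and pathway genes called numbered 3 in EloA_K754R (Keap1, Nqo1 and Hmox1) and 4 in the mean (with Sqstm1), and it changed no other call among these 10.

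Without 1 library Gclm in EloA_K754M ranged from −0.49 to 0.01 (without EloA_K754M replicate 1). In EloA_K754R, Gclc became 0.03 and 0.01 with equal medians and quantile normalization, Nfe2l2 became 0.09 and 0.05 with these, 0.04 with chromosome medians removed and 0.02 without EloA_K754R replicate 1, Sqstm1 became 0.04 with chromosome medians removed and Txnrd1 −0.03 without EloA_WT replicate 1, with leave-one-out ranges of −0.23 to 0.02 for Nfe2l2 and −0.03 to 0.21 for Txnrd1. In the mean, Txnrd1 became 0.14, 0.12 and 0.13 under those 3 scalings, −0.15 to 0.10 when 1 library was left out (0.10 without EloA_WT replicate 2, 0.02 without EloA_K754M replicate 1), and Nfe2l2 became 0.00 with equal medians. Between the mutants, Gclm became −0.01 with equal medians and ranged from −0.19 to 0.31 when 1 library was left out, at −0.19 without EloA_K754M replicate 2 and −0.12 without EloA_K754R replicate 1, Srxn1 ranged from −0.16 to 0.07 (without EloA_K754M replicate 2) and Nfe2l2 from −0.22 to 0.02 (without EloA_K754R replicate 2). In Eed_null over CJ7_WT, Nfe2l2 became −0.01 with equal column medians. There the removal of chromosome medians was chosen after seeing the data.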
